A study of Homo sapiens with 18 samples.

Results

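The HES and ID transcriptional repressors are described here as 6 genes, HES1, HES4, HES6, ID1, ID2 and ID3, among 43735 genes counted by RNA sequencing in 2 human multiple myeloma lines. HES1 was chosen because its level moved in opposite directions in the lines when untreated cells were compared with RSL3-treated cells, and the other members belong to the same families. For all of them the RSL3 values are therefore given as a description, with no test. Of the 6 members, 4 had counts and passed the filter on low counts, whereas HES4 and ID3 were listed at 0 in all 18 libraries and could not be tested.

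MM1S is a myeloma line that responds to glucocorticoids and MM1R is its glucocorticoid-resistant counterpart. Both were grown in RPMI-1640 medium with 10% fetal bovine serum. In each line, cells were left untreated, given 5 µM RSL3 for 3 h, or given 2 µM ferrostatin-1 (Fer-1) for 2 h before 5 µM RSL3 for 3 h. RSL3 blocks GPX4, a glutathione peroxidase that detoxifies peroxidized lipids, and Fer-1 traps the radicals that spread lipid peroxidation. The 6 groups held 3 libraries each, with MM1R cells sampled at passages 4, 6 and 7 and MM1S cells at 16, 22 and 23. No library came from cells given Fer-1 alone, so effects of Fer-1 itself and of Fer-1 on the RSL3 response cannot be told apart. Each group is 1 cell line sampled at 3 passages. The lines share no passage number, so a difference between lines cannot be told apart from one of passage number.

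HES proteins are basic helix-loop-helix (bHLH) repressors that bind DNA and recruit Groucho/TLE corepressors. HES1 and HES4 are classical targets of Notch signalling, in which a cleaved receptor enters the nucleus and joins the DNA-binding protein RBPJ, and HES1 also represses its own promoter. HES6 is an atypical member that counteracts HES1. ID proteins have the helix-loop-helix but lack the basic region, so they pair with E proteins such as TCF3 and TCF12 and keep them off DNA. ID1, ID2 and ID3 are immediate targets of bone morphogenetic protein (BMP) signalling through SMAD1 and SMAD5, and in B-lineage cells the balance of ID and E proteins takes part in differentiation.

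Promoter sequences are shown for the members that illustrate these inputs, since HES1 is the member with the opposite changes, HES4 is the other classical Notch target, and ID1 and ID2 lack the RBPJ core in the same window. The stretches run from 110 to 31 bases before the start site in RefSeq for GRCh38.p14, a later build than the one the counts were made on, each on its gene's strand. Capitals mark TGGGAA, the core letters bound by RBPJ, and CCAAT on either strand (ATTGG on the opposite strand).
HES1: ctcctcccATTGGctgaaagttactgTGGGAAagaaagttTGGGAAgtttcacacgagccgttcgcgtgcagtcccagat
HES4: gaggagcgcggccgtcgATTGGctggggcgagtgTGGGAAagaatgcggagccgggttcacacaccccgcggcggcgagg
ID1: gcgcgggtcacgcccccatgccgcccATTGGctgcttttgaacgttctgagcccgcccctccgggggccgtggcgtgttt
ID2: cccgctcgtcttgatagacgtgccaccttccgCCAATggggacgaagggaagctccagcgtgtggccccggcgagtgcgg

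These windows lie at chr3:194136038-194136117 on the plus strand, chr1:1000128-1000207 on the minus strand, chr20:31605179-31605258 on the plus strand and chr2:8681946-8682025 on the plus strand, respectively. The search covered both strands from 250 bases before to 50 after the start. In HES1, TGGGAA began 84 and 70 bases before the start, and in HES4 it began 76 bases before it, while HES6, ID1, ID2 and ID3 held none. Of 35116 promoters of that length, 24% held TGGGAA at least once and 3.8% held it 2 or more times. The N box CACNAG, the letters that HES proteins bind, occurred 4 times in HES1 and once in ID1. It occurred at least once in 38% of all promoters and 2 or more times in 8.94%. CCAAT or its reverse occurred in every member except ID3 and in 34.6% of all promoters. Such matches describe letters and not binding.

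Total counts were 17635438 to 19368343 per library. All 10 plasma cell markers had over 10 counts in every library, whereas the summed levels of marker lists of T cells, myeloid, fibroblast, endothelial and erythroid cells did not exceed 24.9 CPM, read counts scaled to library size. The library of replicate 2 labelled as MM1R with Fer-1 and RSL3 stood apart. Over 18 genes at least 8-fold higher in MM1S than in MM1R cells, it carried a median of 45.7% of the MM1S level, against -0.67 to 3.19% in the other 8 MM1R libraries. Its NR3C1 level, the glucocorticoid receptor gene that is low in MM1R cells, was 50.2 CPM against 13.8 to 22.3 in those 8 libraries. Values fitted without this library are given beside those of the members and named genes that rest on it. Replicate 1 of MM1S cells with RSL3 also differed from its group, with NR3C1 at 391.8 CPM against 102.3 and 97.6 CPM.

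The levels of all members with counts are plotted by library, and CPM here are relative to a library's total count after TMM scaling.

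**Figure D1:**
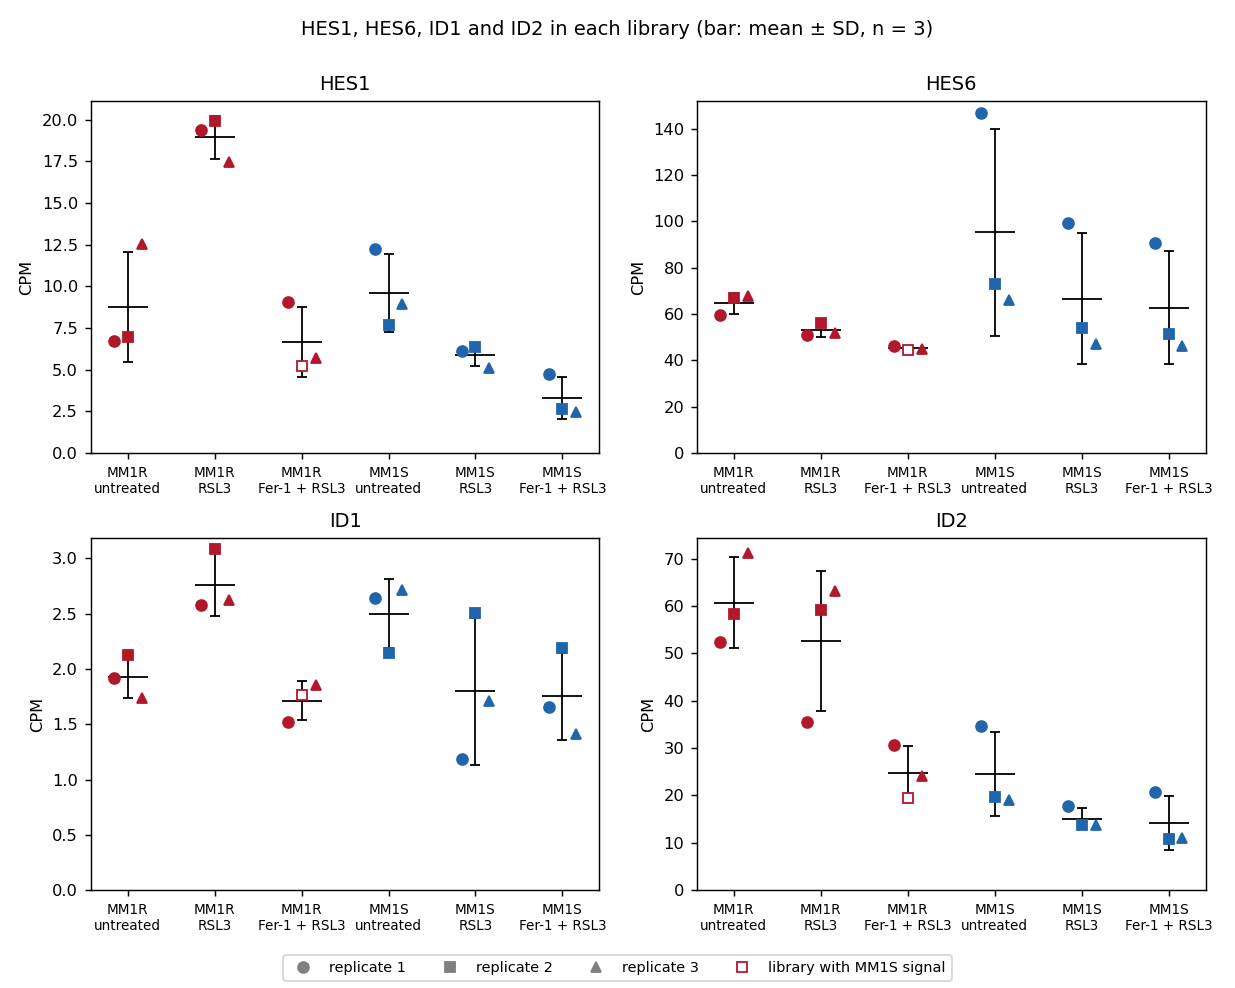
Level of HES1, HES6, ID1 and ID2 in CPM (linear axes from 0) in each of the 18 libraries, with the 6 groups on the horizontal axis, symbols for the replicates, and bars for the mean and SD of 3 libraries. The open square is the MM1R library that carried MM1S signal. HES1 lies between 17.5 and 19.9 CPM in MM1R cells with RSL3, above every other library, and ID2 is highest in untreated and RSL3-treated MM1R cells.

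HES1 (hg19, chr3:193853937-193856521, plus strand) had 6.75, 6.97 and 12.6 CPM in untreated MM1R cells at replicates 1, 2 and 3. With RSL3 the values were 19.4, 19.9 and 17.5 CPM, and with Fer-1 before RSL3 they were 9.05, 5.25 and 5.68 CPM. All RSL3 libraries of MM1R cells thus lay above the untreated libraries and above those with Fer-1, which overlapped each other. In MM1S cells, HES1 had 12.2, 7.68 and 8.93 CPM without treatment, 6.11, 6.39 and 5.12 CPM with RSL3, and 4.77, 2.68 and 2.46 CPM with Fer-1 and RSL3. In this line the 3 groups did not overlap and stepped down in that order.

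By group mean, HES1 was ordered from MM1R with RSL3 (18.9 ± 1.29 CPM, SD, n = 3) through untreated MM1S (9.61 ± 2.35), untreated MM1R (8.77 ± 3.30), MM1R with Fer-1 and RSL3 (6.66 ± 2.08) and MM1S with RSL3 (5.88 ± 0.67) to MM1S with Fer-1 and RSL3 (3.30 ± 1.27). Only the highest and the lowest group were separated from their neighbour in this order, and the 4 groups between them overlapped with the next. The fitted log2 fold change of RSL3 against untreated, the contrast that chose the gene, was 1.11 (SE 0.28) in MM1R and -0.71 (SE 0.29) in MM1S cells, a difference of 1.82 (SE 0.40). Within passages the log2 ratio was 1.51, 1.50 and 0.47 in MM1R cells and -0.99, -0.26 and -0.79 in MM1S cells. The smallest ratio of MM1R cells was at passage 7, where the untreated library had the most HES1.

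HES1 was lower with Fer-1 and RSL3 than with RSL3 alone at all 6 passages. The log2 ratios were -1.09, -1.90 (from the library with MM1S signal) and -1.60 in MM1R and -0.35, -1.22 and -1.02 in MM1S cells. The direction of this difference was therefore shared by the lines, unlike that of RSL3 against untreated. The RSL3 libraries in it are those HES1 was chosen on. The fitted log2 fold change was -1.51 (SE 0.29) in MM1R cells and -0.83 (SE 0.30) in MM1S cells. The FDRs, Benjamini-Hochberg adjusted p-values of the quasi-likelihood test in edgeR, were 0.253 and 0.795. A gene was called when the FDR was below 0.05 and the log2 fold change above 1 in size. In MM1R cells the call depended on the method and on single libraries. The FDR was 0.0374 in a fit blocked on passage and 0.000417 in DESeq2. In edgeR it was 0.029 without replicate 1 of MM1S with RSL3, a library that is not part of this comparison. It was 1 without replicate 2 of Fer-1 and RSL3 (log2 fold change -1.36).

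Against untreated cells, HES1 with Fer-1 and RSL3 fell in MM1S cells by 1.54 on the log2 scale (SE 0.30, edgeR FDR 0.00694), and it was called in each of 18 fits that left out 1 library. All 3 passages of MM1S cells were lower, with log2 ratios of -1.34 to -1.81. The corresponding value for MM1R was -0.39 (SE 0.29, edgeR FDR 0.422), and passages went both ways, from 0.42 to -1.13. Without replicate 2 of Fer-1 and RSL3 it was -0.25. The difference between the lines in this change was 1.14 (SE 0.41, 95% interval 0.25 to 2.04), with a p of 0.0128 before adjustment in edgeR and an FDR of 1, and it was 1.29 without that library. The untreated libraries of this comparison are among those HES1 was chosen on.

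The libraries with Fer-1 and RSL3 are those that the choice of HES1 did not use. Between them, HES1 was higher in MM1R than in MM1S cells by a log2 fold change of 1.01 (SE 0.30), with an edgeR FDR of 0.0819, which did not pass the test. All 3 MM1R libraries lay above the MM1S libraries, and without replicate 2 of MM1R the log2 fold change was 1.15 (FDR 0.0518). In DESeq2 the FDR was 0.0222. Between untreated lines the log2 fold change of HES1 was -0.14 (SE 0.28, edgeR FDR 0.822, 95% interval -0.75 to 0.48).

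**Figure D2:**
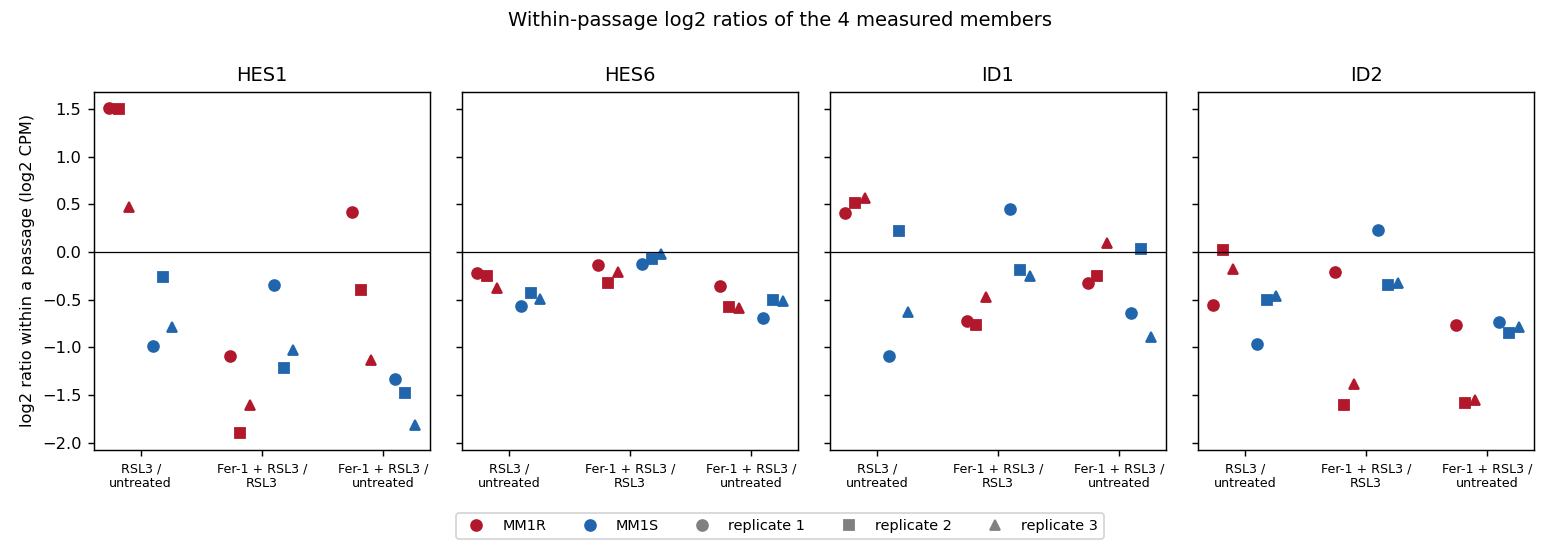
Log2 ratio of CPM within each passage (vertical axis) for 3 pairs of treatments (horizontal axis) and the 4 members with counts, with MM1R in red, MM1S in blue and 1 symbol per replicate. HES1 ratios of RSL3 to untreated lie above 0 in MM1R and below 0 in MM1S cells, and HES6 ratios lie below 0 in all 6 passages for every pair. The MM1R library with MM1S signal (replicate 2 with Fer-1 and RSL3) is not marked here.

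HES6 (hg19, chr2:239146908-239149303, minus strand) was the most abundant HES member per length. In untreated MM1R cells it reached 33.1 ± 2.35 CPM per kb of exon (SD, n = 3), against 4.26 ± 1.60 for HES1. Its level was 59.4, 66.9 and 67.8 CPM in untreated MM1R cells, 51.0, 56.2 and 52.1 CPM with RSL3, and 46.4, 44.7 and 45.0 CPM with Fer-1 and RSL3. These 3 groups stepped down without overlap. In MM1S cells it was 146.7, 73.0 and 66.3 CPM without treatment, 99.2, 54.0 and 47.0 CPM with RSL3, and 90.9, 51.3 and 46.3 CPM with Fer-1 and RSL3. Passage 16 was highest in each of these groups, so the groups overlapped although the treatments kept their order within every passage.

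HES6 was lower with RSL3 than without at all 6 passages, by log2 ratios of -0.22 to -0.38 in MM1R and -0.43 to -0.56 in MM1S cells. With Fer-1 and RSL3 against untreated, the ratios ran from -0.36 to -0.59 and from -0.51 to -0.69. The fitted log2 fold changes were -0.51 (SE 0.30, edgeR FDR 0.313, and -0.50 without replicate 2) in MM1R and -0.60 (SE 0.30, FDR 0.299) in MM1S cells. With the passage as a block their FDRs were 0.000725 and 0.000415, at log2 fold changes of -0.51 and -0.57 (SE 0.07 for both), short of the fold threshold. In the means, untreated MM1S cells had the most HES6 (95.3 ± 44.6 CPM) and MM1R cells with Fer-1 and RSL3 the least (45.4 ± 0.87), and only the last of these stood clear of its neighbour. An unnamed non-coding gene overlaps HES6 on the opposite strand, and since the use of strand in counting is not given in the sources used here, reads of the pair cannot be told apart.

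ID2 (hg19, chr2:8818975-8824591, plus strand) was the most abundant ID member and differed between the untreated lines. It had 52.4, 58.4 and 71.2 CPM in untreated MM1R cells and 34.7, 19.7 and 19.1 CPM in untreated MM1S cells, which did not overlap. The log2 fold change was 1.31 (SE 0.29, edgeR FDR 0.00812). The lines were sampled at different passage numbers, which cannot be told apart from the line here. The call was lost without replicate 3 of untreated MM1S cells, at an FDR of 0.0511, and held in the other 17 fits that left out 1 library. Of the 4 tested members ID2 was the only one called between the untreated lines, where 4.64% of all 14281 tested genes were called. HES6 had a log2 fold change of -0.56 (SE 0.30, FDR 0.271) and ID1 of -0.37 (SE 0.26, FDR 0.407) in that comparison.

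With RSL3, ID2 had 35.6, 59.1 and 63.1 CPM in the MM1R libraries and 17.7, 13.9 and 13.8 CPM in the MM1S libraries. With Fer-1 and RSL3 it was at 30.7, 19.4 and 24.1 CPM in MM1R and at 20.7, 10.9 and 11.0 CPM in MM1S cells. In MM1R cells the libraries with Fer-1 lay below all others, whereas untreated and RSL3 libraries overlapped. In MM1S cells both treated groups had lower means than untreated cells and overlapped each other.

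ID2 fell with Fer-1 and RSL3 against untreated MM1R cells by 1.29 on the log2 scale (SE 0.28, edgeR FDR 0.00997). All 6 passages of both lines were lower in this comparison, with log2 ratios of -0.77 to -1.58 in MM1R and -0.74 to -0.85 in MM1S cells. The MM1R call was lost without replicate 2, the library with MM1S signal and the lowest ID2 of its group, where the log2 fold change was -1.15 and the FDR 0.0537. In MM1S cells the log2 fold change was -0.79 (SE 0.29, edgeR FDR 0.137), and with the passage as a block the FDR was 0.0228 at a log2 fold change of -0.79. The difference between the lines was -0.51 (SE 0.40, 95% interval -1.39 to 0.37, edgeR FDR 1), and -0.36 without replicate 2.

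Against RSL3 alone, ID2 with Fer-1 was lower in MM1R cells by a fitted log2 fold change of -1.09 (SE 0.28, edgeR FDR 0.444), with passage ratios of -0.21, -1.60 and -1.38. In DESeq2 its FDR was 0.0493, and without replicate 2 the log2 fold change was -0.94. In MM1S cells the value was -0.09 (SE 0.29, 95% interval -0.72 to 0.55). For RSL3 against untreated the fitted log2 fold changes were -0.21 (SE 0.28) and -0.70 (SE 0.29) in MM1R and MM1S cells. By mean, ID2 was ordered from untreated MM1R (60.7 ± 9.64 CPM), MM1R with RSL3 (52.6 ± 14.9), MM1R with Fer-1 and RSL3 (24.7 ± 5.67) and untreated MM1S (24.5 ± 8.84) to MM1S with RSL3 (15.1 ± 2.22) and with Fer-1 and RSL3 (14.2 ± 5.66). The antisense gene ID2-AS1 overlaps ID2, and it had 39 counts in all libraries together.

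ID1 (hg19, chr20:30193086-30194318, plus strand) was low, at 18 to 57 counts per library. It had 1.92, 2.12 and 1.74 CPM in untreated MM1R cells, 2.58, 3.09 and 2.62 CPM with RSL3, and 1.52, 1.77 and 1.86 CPM with Fer-1 and RSL3. The RSL3 libraries lay above both other groups, which is the order HES1 had in this line. In MM1S cells it had 2.64, 2.14 and 2.71 CPM without treatment, 1.18, 2.50 and 1.71 CPM with RSL3, and 1.66, 2.19 and 1.42 CPM with Fer-1 and RSL3, and all 3 groups overlapped.

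For RSL3 against untreated, the fitted log2 fold change of ID1 was 0.52 (SE 0.26) in MM1R and -0.46 (SE 0.26) in MM1S cells, with passage ratios of 0.41 to 0.56 and -1.09 to 0.22. Fer-1 and RSL3 against RSL3 gave -0.69 (SE 0.26, edgeR FDR 0.724) in MM1R and -0.05 (SE 0.26, FDR 0.996) in MM1S cells. Against untreated cells the values were -0.17 (SE 0.26, FDR 0.735) and -0.51 (SE 0.26, FDR 0.305). Without replicate 2 of Fer-1 and RSL3 the MM1R values were -0.71 against RSL3 and -0.20 against untreated.

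HES4 (hg19, chr1:934342-935552, minus strand) and ID3 (hg19, chr1:23884417-23885992, minus strand) were listed at 0 counts in every library. A count of 0 allows up to 3 counts, or 0.155 to 0.17 CPM, in a library. Both were missing from the authors' normalized table. Of 18868 protein-coding genes, 13.7% were also at 0 in all libraries, and these included TUBB, a tubulin gene that dividing cells use widely, so a listing at 0 does not show that the RNA was missing. Beside ID3, the genes ZNF436, ZNF436-AS1 and TCEA3 were listed at 0 and ASAP3 had 2 counts in all, while E2F2 had 524 and RPL11 had 326520. Beside HES4, PERM1 had 12 counts and ISG15, whose start lies 1.0 kb away, had 2280.

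**Figure D3:**
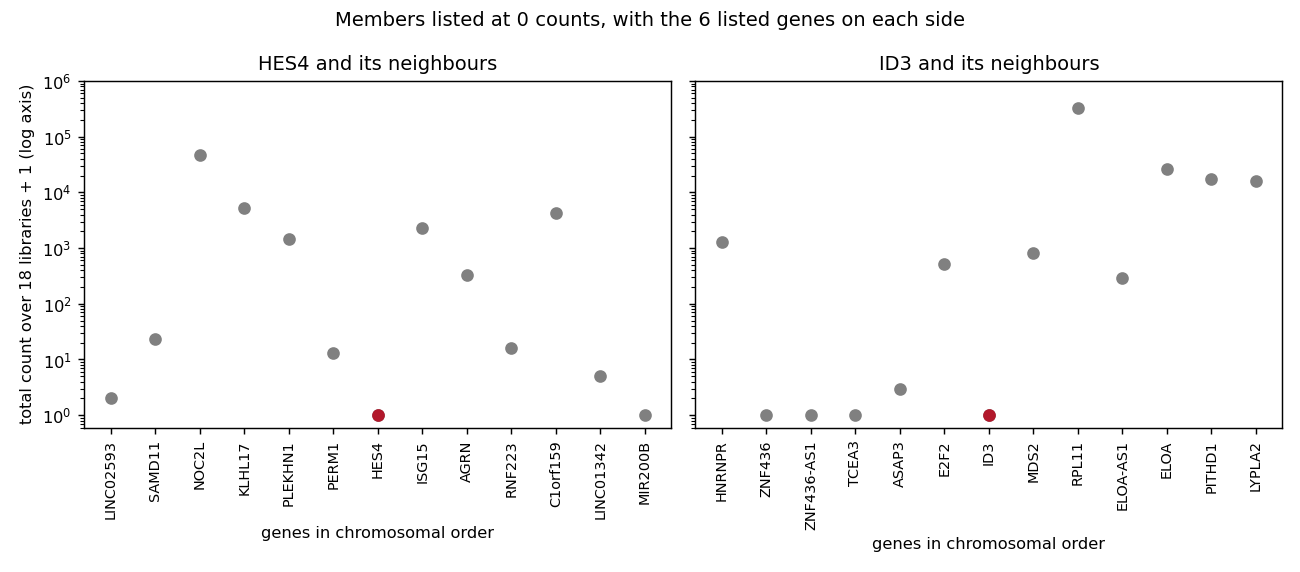
Total count over 18 libraries plus 1 (log axis) of HES4 and ID3 (red) and of the 6 listed genes on each side of them in chromosomal order (grey). Both members are at 0 counts, as are ZNF436, ZNF436-AS1 and TCEA3 beside ID3 and MIR200B beside HES4.

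Across the comparisons, the members called can be set against the whole table. For Fer-1 and RSL3 against RSL3, 0 of 4 members were called in either line, as were 0% of all tested genes in MM1R and 0% in MM1S cells. Without adjustment, 881 and 821 of 14281 tested genes had p below 0.05 in edgeR, a cut that many genes pass with no difference present. DESeq2 called 17 and 5 genes. Leaving out replicate 1 of MM1S with RSL3, which is not part of the MM1R comparison, gave 31 calls in MM1R cells by edgeR. For Fer-1 and RSL3 against untreated, 1 of 4 members was called in MM1R cells (ID2, lower), where 2.16% of tested genes were called. That share was 1.48% without replicate 2 of Fer-1 and RSL3, when ID2 was not called. In MM1S cells 1 of 4 was called (HES1, lower), where 1.37% of tested genes were. The untreated libraries of that comparison are among those HES1 was chosen on, so its call is no independent support. For the difference between the lines in Fer-1 and RSL3 against untreated, 0 of 4 members and 0% of genes were called by edgeR, and 0 by DESeq2. By edgeR, 384 of 14281 tested genes had p below 0.05 there. Between the lines with Fer-1 and RSL3, 0 of 4 members were called against 1.8% of genes (3.15% without that library). These shares moved with single libraries, as did those for RSL3 against untreated, where 171 genes called in MM1R became 52 without replicate 1 of untreated cells and 230 called in MM1S became 52 without that replicate of untreated MM1S cells.

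The response to RSL3 itself was followed in each passage by HMOX1, the haem oxygenase gene, and SLC7A11, the cystine transporter gene. HMOX1 was higher with RSL3 in all 6 passages, by log2 ratios of 4.12, 3.76 and 5.78 in MM1R and 7.75, 5.08 and 5.03 in MM1S cells. The largest ratio of each line was at passage 7 of MM1R and passage 16 of MM1S cells. The HES1 ratio of RSL3 to untreated was the lowest of its line at these passages (0.47 and -0.99). Any link between the 2 genes was not tested. With Fer-1 and RSL3, HMOX1 stayed above untreated by log2 ratios of 5.26 to 6.96, and it was below RSL3 alone only at passage 16. SLC7A11 was likewise higher with Fer-1 and RSL3 than with RSL3 alone at all 6 passages, by 0.046 to 0.98, where 0.98 comes from the library with MM1S signal. HES1 went the other way, being lower with Fer-1 at each of those passages.

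The other genes around these repressors were taken from 9 lists with 78 genes, of which 7 were at 0 in all libraries and 61 were tested. With RSL3 against untreated, 2 of 61 rose in MM1R cells, where 1.2% of all genes were called, and 2 of 61 in MM1S cells, where 1.61% were called, and 0 fell. In both lines they were BHLHE41 and MSC. With Fer-1 and RSL3 against untreated, 3 of 61 rose in MM1R cells beside 2.16% of all genes, and 1 of 61 in MM1S cells beside 1.37%. Counts this small in single lists are a description and do not set the lists apart from other genes. Between the untreated lines, 6 of 61 were called (9.84%, beside 4.64% of all genes), with 2 higher and 4 lower in MM1R cells, and TLE1 and ENG were among the lower ones. For RSL3 in MM1S cells the count was 1 when replicate 1 with RSL3 or replicate 1 or 2 without treatment was left out, and 4 without replicate 3 with RSL3. BHLHE41, a bHLH repressor of the circadian clock related to HES, rose by a log2 fold change of 1.48 (SE 0.27, edgeR FDR 0.00798) in MM1R and 1.26 (SE 0.27, FDR 0.0177) in MM1S cells. Its level went from 59.4 ± 7.54 to 166.4 ± 48.6 CPM in MM1R and from 48.8 ± 7.33 to 116.8 ± 59.4 CPM in MM1S cells (SD, n = 3). MSC (musculin), a bHLH repressor of activated B cells, rose by 3.21 (SE 0.28) and 3.17 (SE 0.26), from 0.28 ± 0.07 to 2.59 ± 0.34 CPM and from 0.39 ± 0.04 to 3.61 ± 0.68 CPM. Its untreated levels lay near the 3 counts (0.155 to 0.17 CPM in a library) that a listing at 0 allows. MSC thus passed the filter on low counts through its treated libraries. The size of its rise is uncertain, and its calls are given as a description.

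With Fer-1 and RSL3, MSC rose against untreated by 3.24 (SE 0.28, and 3.27 without replicate 2) in MM1R and 3.17 (SE 0.26) in MM1S cells, whereas BHLHE41 had log2 fold changes of 0.42 (SE 0.26, edgeR FDR 0.343) and 0.44 (SE 0.27, FDR 0.40). Thus BHLHE41 was no longer called with Fer-1, although its difference from RSL3 alone was not called either, at -1.07 (SE 0.26, FDR 0.429) and -0.82 (SE 0.26, FDR 0.783). In MM1R cells the corepressor gene TLE1 also rose, by 1.10 (SE 0.31, edgeR FDR 0.0337), as did ENG, which encodes the BMP co-receptor endoglin, by 1.87 (SE 0.52, FDR 0.0331). ENG had 0.27 ± 0.22 CPM (2 to 10 counts) in untreated MM1R cells and 1.01 ± 0.30 CPM with Fer-1 and RSL3. Its fold change thus rests on an untreated level near the floor. Without replicate 2 both calls were lost, at log2 fold changes of 0.89 (FDR 0.142) for TLE1 and 1.64 (FDR 0.121) for ENG. The number called in MM1R cells was also 1 in place of 3 without replicate 2 or 3 of untreated cells, and the 1 called in MM1S cells became 2 without replicate 3 of Fer-1 and RSL3.

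Among Notch ligands and receptors, 0 of 5 tested genes were called for either treatment against untreated. In these comparisons 1.2 to 2.16% of all tested genes were called, so counts of 0 do not set such short lists apart. NOTCH1 was higher with Fer-1 and RSL3 by 0.67 (SE 0.18, edgeR FDR 0.026) in MM1R and 0.91 (SE 0.18, FDR 0.00706) in MM1S cells, short of the fold threshold, from 72.6 ± 5.69 to 115.7 ± 15.4 CPM and from 67.6 ± 5.63 to 127.0 ± 25.0 CPM. Without replicate 2 the value in MM1R cells was 0.56 (FDR 0.114). With RSL3 alone the NOTCH1 means were also above untreated, at 90.5 ± 8.67 CPM in MM1R and 100.9 ± 28.5 CPM in MM1S cells. The receptor gene NOTCH2 was between 77.2 and 109.5 CPM in all libraries. JAG1, a Notch ligand gene, had log2 fold changes with RSL3 of 1.00 (SE 0.37, edgeR FDR 0.156) and 1.01 (SE 0.38, FDR 0.148). Its RSL3 libraries spanned 41.8 to 104.7 CPM in MM1R and 28.1 to 99.6 CPM in MM1S cells. RBPJ was measured at 64.9 to 101.9 CPM and had log2 fold changes of 0.033 (SE 0.13) and -0.12 (SE 0.13) with RSL3. Against untreated, with either treatment, no gene was called among 11 tested genes of Notch processing and 5 of Notch feedback and turnover, and TLE1 was the only one called of 10 in the nuclear complex and its corepressors.

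Of the BMP pathway, with either treatment against untreated, 0 of 3 tested ligands and 0 of 6 feedback inhibitors were called, and ENG was the only one called of 11 receptors and SMADs. These counts stand beside the same 1.2 to 2.16% of all tested genes. The ligand gene BMP6 was at 84.8 ± 6.13 CPM in untreated MM1R and 96.8 ± 20.6 CPM in untreated MM1S cells and had log2 fold changes of -0.10 (SE 0.17) and -0.25 (SE 0.17) with RSL3. For the receptor gene BMPR2 they were -0.66 (SE 0.33, edgeR FDR 0.312) and -0.85 (SE 0.32, FDR 0.156). SMAD1, which carries the BMP signal, had 0.089 (SE 0.11) and -0.05 (SE 0.11), and the inhibitor gene SMAD6 was below 1 CPM in every library. Over the 61 tested genes, the median log2 fold change of RSL3 against untreated was 0.037 in MM1R and 0.0018 in MM1S cells, beside 0.00023 and 0.0022 over all tested genes.

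The E protein gene TCF3, whose product pairs with ID proteins, was abundant and lower after treatment in both lines, by less than the fold threshold. It was at 1086 ± 5.36 CPM in untreated MM1R cells, 746.6 ± 104 with RSL3 and 613.9 ± 123 with Fer-1 and RSL3, and at 581.7 ± 25.9, 402.7 ± 45.3 and 393.2 ± 32.5 CPM in MM1S cells. The log2 fold change of RSL3 against untreated was -0.54 (SE 0.14, edgeR FDR 0.0406) in MM1R and -0.53 (SE 0.14, FDR 0.042) in MM1S cells, and that of Fer-1 and RSL3 was -0.82 (FDR 0.00225) and -0.57 (FDR 0.0264). Without replicate 2 the MM1R value with Fer-1 was -0.70 (FDR 0.0138). TCF12, the other E protein gene named here, had 0.20 (SE 0.11) and 0.016 (SE 0.11) with RSL3.

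**Figure D4:**
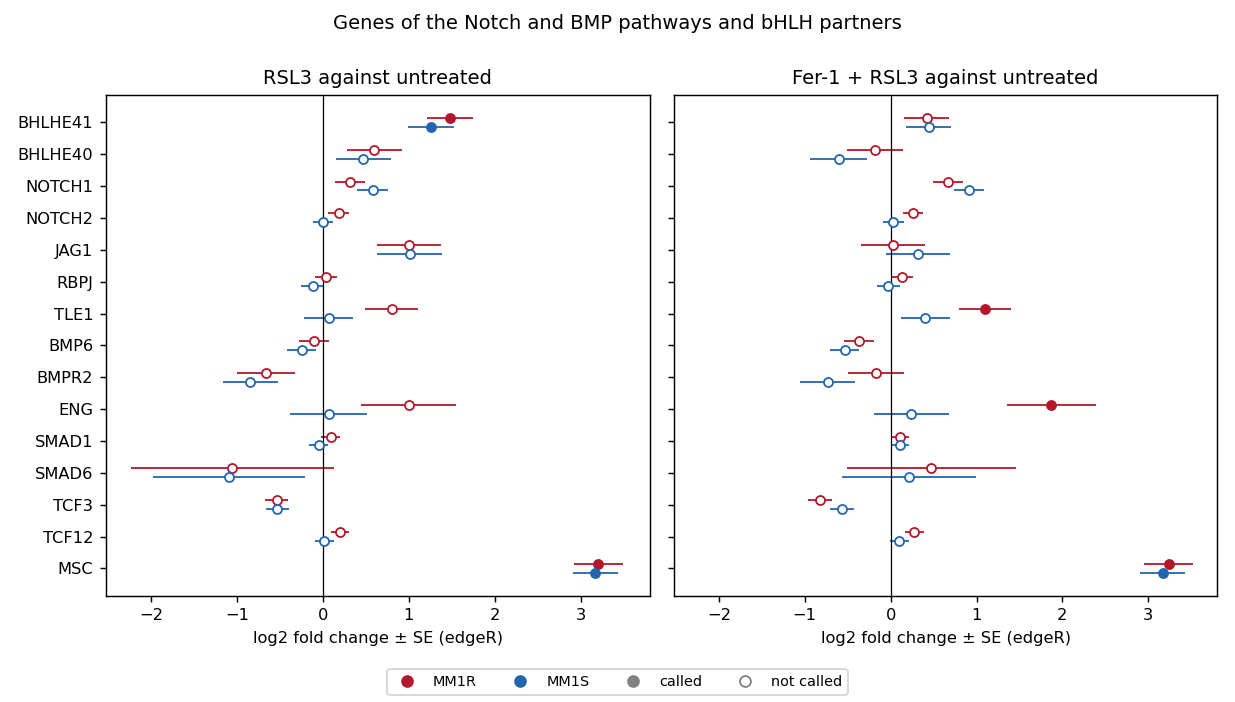
Fitted log2 fold change with its SE (horizontal axis, edgeR) of 15 genes of the Notch and BMP pathways and of bHLH partners, for RSL3 (left) and Fer-1 and RSL3 (right) against untreated, in MM1R (red) and MM1S (blue) cells. Filled points are called genes. MSC is called in both lines with both treatments, BHLHE41 in both lines with RSL3 alone, and TLE1 and ENG in MM1R cells with Fer-1 and RSL3. The untreated levels of MSC in both lines, and of ENG in MM1R cells, were near the floor of 3 counts.

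The genes whose profile was most like that of each member were found by the root mean square difference between gene-centred log2 CPM over 18 libraries. For HES1 they were F2RL3 (0.41), LINC00880 (0.51) and BCL3 (0.53), where the median tested gene had 0.88. F2RL3, a thrombin receptor gene, was at 14.7 ± 2.65, 15.9 ± 3.20 and 8.36 ± 1.26 CPM in the untreated, the RSL3 and the Fer-1 and RSL3 group of MM1R, and at 9.62 ± 3.15, 5.72 ± 0.99 and 2.92 ± 0.98 CPM in MM1S cells. BCL3 was at 23.3 ± 2.69, 41.9 ± 9.54 and 16.6 ± 5.23 CPM over the MM1R groups and at 19.8 ± 4.42, 23.4 ± 14.2 and 13.0 ± 3.45 CPM over the MM1S groups. F2RL3 stepped down over the groups of MM1S cells as HES1 did, but in MM1R cells its RSL3 and untreated means differed by less than their SDs. BCL3 had its highest mean in MM1R cells with RSL3, but its mean was also higher with RSL3 in MM1S cells, unlike that of HES1.

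For HES6 the nearest profile was that of ST8SIA2 (0.082), far below the median gene at 0.54, followed by FBRSL1 (0.24) and TAFA5 (0.24). ST8SIA2, a polysialyltransferase gene, was at 12.1 ± 0.79, 10.2 ± 0.73 and 8.33 ± 0.67 CPM over the MM1R groups and at 17.9 ± 9.30, 11.7 ± 4.28 and 12.5 ± 5.69 CPM over the MM1S groups in the same order. For ID2 the nearest were CD79B (0.33), a subunit gene of the B cell receptor, DOK3 (0.33) and LINC01018 (0.35), with the median gene at 0.92. For ID1 they were SWSAP1 (0.23), FEZF1 (0.25) and DOCK8 (0.27), with the median gene at 0.45. The measure is a description over libraries that share passages and lines.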

How the data were processed

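RNA of 18 libraries in 6 groups of 3 was sequenced in pairs of 50 bp reads. The authors checked reads with FastQC 0.11.5, aligned them to hg19 with STAR 2.7.3a and deposited raw counts for 43735 genes. They also deposited a table of 29553 genes with normalized signal, obtained by dividing a library's counts by its size factor (0.834 to 1.08). The counting tool, annotation and use of strand are not given in the sources used here. Members and gene lists were chosen with earlier results of these data known.

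Counts were fitted with edgeR 4.0.16 in R 4.3.3 (quasi-likelihood test, 6 group means, 12 residual degrees of freedom, TMM factors 0.864 to 1.06). filterByExpr with a minimum count of 10 kept 14281 genes. Called genes had a Benjamini-Hochberg FDR below 0.05 and a log2 fold change above 1 in size. The depth of 17635438 to 19368343 counts limits low genes, and the floor of 3 counts covers counting error only. Replicates are cell passages of 1 line each. The main fit leaves out the passage, so its p-values measure the spread between passages. Those of the fit with the passage as a block measure the spread left within passages. FDRs of single pathway genes are all from fits without the passage. Passages pair the libraries within a line, since the labels give each number a cell passage and same-passage deviations had a median correlation of 0.250 in MM1R (0.0338 to 0.516, 9 pairs) and 0.416 in MM1S cells (0.216 to 0.681, 9 pairs).

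Named genes were the 6 members, pathway genes called for either treatment against untreated, 10 pathway genes taken for their roles, the 3 genes with the most similar profile to each member (log2 CPM with a prior count of 2), HMOX1, SLC7A11 and NR3C1. The 9 lists were other HES, HEY and BHLHE genes, Notch ligands and receptors, Notch processing, the Notch nuclear complex and corepressors, Notch feedback and turnover, BMP ligands, BMP receptors and SMADs, BMP feedback inhibitors, and ID4 and E proteins with bHLH partners. Alternatives were RLE size factors, no filter, a minimum count of 50, DESeq2 1.42.0, the passage as a block (8 residual degrees of freedom), limma 3.58.1 on log2 of the authors' normalized signal plus 1, and leaving out each library in turn. The edgeR steps were also run on simulated counts with changes set only in the MM1R group with Fer-1 and RSL3. These counts held no passage effects and no library with signal of the other line, so they do not check such cases. Positions came from GENCODE for hg19 and promoter sequences from RefSeq, joined by symbol.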

Additional observations from a re-analysis of the deposited data

Results flagged for a closer look

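The change of HES1 with RSL3 against untreated differed between the lines by 1.82 on the log2 scale, because every MM1R passage moved up and every MM1S passage moved down. HES1 was chosen on these values, so the difference was not tested.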

How the results depend on the processing

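The call of HES1 with Fer-1 and RSL3 against untreated MM1S cells held under every alternative run, but these untreated libraries are among those the gene was chosen on, so this is no independent support. Those of ID2 against untreated MM1R cells and between the untreated lines held under every alternative except 1 omitted library each. For Fer-1 and RSL3 against RSL3 in MM1R cells, the members called went from 0 to 2 without a filter, 2 with DESeq2 and 1 with the passage as a block (HES1, FDR 0.0374), and to 0 to 1 when libraries were left out (1 without replicate 1 of MM1S with RSL3). Between the lines with Fer-1 and RSL3 they went from 0 to 1 without a filter and 1 with DESeq2, and 0 to 2 with a library left out (2 without replicate 1 of MM1S with Fer-1 and RSL3). The corresponding ranges were 0 to 1 for Fer-1 and RSL3 against untreated MM1R cells and 0 to 1 between untreated lines.

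Pathway genes called without a filter were 4 in MM1R and 4 in MM1S cells with RSL3 and 2 in MM1S cells with Fer-1 and RSL3, where DESeq2 and the passage block also gave 2. With libraries left out they were 2 to 3 and 1 to 4 with RSL3 in MM1R and MM1S cells, and 1 to 4 and 1 to 2 with Fer-1 and RSL3.

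Values near 0 changed sign. ID1 with Fer-1 and RSL3 against RSL3 in MM1S cells was 0.00625 in limma and -0.264 to 0.269 with libraries left out. HES6 and ID2 there were -0.447 to 0.313 and -0.462 to 0.0719. HES1 between untreated lines was -0.487 to 0.073, the line difference of HES6 with Fer-1 and RSL3 was -0.362 to 0.452, and ID1 between lines with Fer-1 and RSL3 was -0.155 to 0.155. The cause was not tested.

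Over the whole table, calls without a filter were 431 and 517 for RSL3 and 502 and 378 for Fer-1 and RSL3 against untreated in MM1R and MM1S cells, 569 between the lines with Fer-1 and RSL3, and 27 and 29 for the line differences of RSL3 and of Fer-1 and RSL3. DESeq2 called 271 for RSL3 in MM1R cells, and a minimum count of 50 left 410 in place of 662 between untreated lines. Calls for Fer-1 and RSL3 against RSL3 rose from 0 and 0 to 134 and 151 without a filter, 17 and 5 with DESeq2, and 12 and 5 with the passage block. With that block, calls for RSL3 against untreated were 410 and 387 in MM1R and MM1S cells, and for Fer-1 and RSL3 521 and 383, against 171, 230, 309 and 195 without it, and 2 for the line difference of Fer-1 and RSL3. With libraries left out, calls for RSL3 against untreated were 52 to 341 in MM1R and 52 to 469 in MM1S cells, and for Fer-1 and RSL3 against untreated 189 to 394 and 115 to 291. They were 415 to 796 between untreated lines and 119 to 462 (462 without replicate 2 of MM1R) between the lines with Fer-1 and RSL3. For Fer-1 and RSL3 against RSL3 in MM1R cells they were 0 to 31 (31 without replicate 1 of MM1S with RSL3). The passage block changed no other call of a member and was not run between lines, which share no passage. Depth limits ID1, at 18 to 57 counts, as well as MSC in untreated cells and ENG in untreated MM1R cells.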
